A study of Mus musculus with 4 samples.

Results

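The genes described here are the mitosis genes, a list of 50 genes that encode the cyclins, kinases, motors, checkpoint proteins and chromosome proteins of cell division. They were measured in murine embryonic stem cells (CM7/1), cells that divide fast and can form all tissues of the embryo. Members were found on the array as the probe sets, groups of short oligonucleotides that read the same transcript, whose platform annotation gives a listed symbol and no other. Of the 50 genes 49 were found, out of 18194 genes named in this way, with 112 probe sets. Ccnb1 was not analysed here. The probe set with the highest mean level stood for each gene.

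The study asked which genes Hey1 and Hey2 regulate, 2 repressors of transcription that Notch signalling turns on. The groups were Hey1 cells labelled induced (doxycycline at 1000 ng/ml for 48 h), uninduced Hey1 cells, Hey2 cells labelled induced (the same dose and time) and uninduced Hey2 cells, with 1 array of total RNA in each. All 4 groups carried an overexpression label for Hey1 or Hey2, uninduced cells included. The promoter of the constructs and the number of clones were not stated in the labels. No group has a replicate, so differences between 2 arrays are given without a p-value and without a replicate check, and the number of arrays limits their precision.

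A cell enters mitosis when Cdk1, bound to cyclin A or cyclin B, is freed from the inhibitory phosphate that Wee1 places and Cdc25 phosphatases remove. Kinetochores then attach chromosomes to spindle microtubules. The spindle checkpoint delays the anaphase-promoting complex until all are attached, and that complex then marks cyclin B and securin for destruction, so that separase can part the sister chromatids. Most of these genes are transcribed in the G2 phase and mitosis under the control of the MuvB complexes, B-Myb and FoxM1, and their transcript levels are commonly read as a mark of proliferating cells. Embryonic stem cells cycle with short gap phases.

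Levels are log2 RMA values, in which arrays were background-corrected, brought to a shared distribution and summarised per probe set. All 49 measured members passed the level filter, which asks that the highest of the 4 values reach 6.05, the median of all values, as did 12098 genes in all. The embryonic stem cell markers Pou5f1, Sox2, Nanog, Zfp42, Esrrb, Dppa5a and Utf1 passed it too, at 10.9 or above. Of the markers of other cell types, 2 of 7 for fibroblasts, 1 of 5 for endoderm and 2 of 4 for trophoblast reached it. So did 3 of 4 measured markers of mesoderm and heart, of 5 listed. Krt8 (up to 9.75) and Thy1 (up to 7.80) were the highest. The Hey1 probe set read 6.51 labelled induced and 6.73 uninduced in Hey1 cells, and the Hey2 probe set, below the level filter, read 4.34 labelled induced and 4.25 uninduced in Hey2 cells. Neither shows the introduced factor, so the arrays are named by their labels, and whether these probe sets read the introduced transcript was not tested. Bulk RNA cannot tell fewer dividing cells from less transcript per cell.

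Most mitosis genes differed little between the arrays of either line, and 8 of them stood above the rest in Hey2 cells. The threshold used was a log2 difference of 0.32, a level 25% higher or 20% lower. In the Hey2 array labelled induced Cenpf, Cenpe, Mki67, Smc4, Smc2, Ncapg, Bub1 and Ndc80 were higher than in the uninduced array by 0.32 or more, and 0 members were lower by as much. Among all 12098 genes compared, 9.54% were higher and 11.7% lower by that amount. In Hey1 cells Cenpf and Cenpe were higher and Wee1 was lower by 0.32 or more, beside 6.16% of all genes higher and 3.99% lower. The other 40 members stayed within 0.32 in both lines.

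By the probe set that stood for each gene, larger folds were reached in Hey2 cells and not in Hey1 cells. At 1.5-fold 4 members were higher and 0 lower there, where 3.02% of all genes were higher and 2.46% lower, and at 2-fold 2 were higher and 0 lower, where 0.686% and 0.24% were. In Hey1 cells 0 members passed 1.5-fold or 2-fold, where 1.84% of all genes were higher and 0.587% lower by the first fold and 0.438% and 0.0331% by the second. The median difference of the members in Hey2 cells was 0.08, where that of all genes was -0.02. Above 0 lay 33 of 49, beside 45.6% of all genes. In Hey1 cells the median was -0.005, where that of all genes was -0.012, and 24 lay above 0, beside 46.8% of all genes. In all, 21 members lay above 0 in both lines and 12 below 0 in both, where 28.1% and 35.5% of all genes did.

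**Figure D1:**
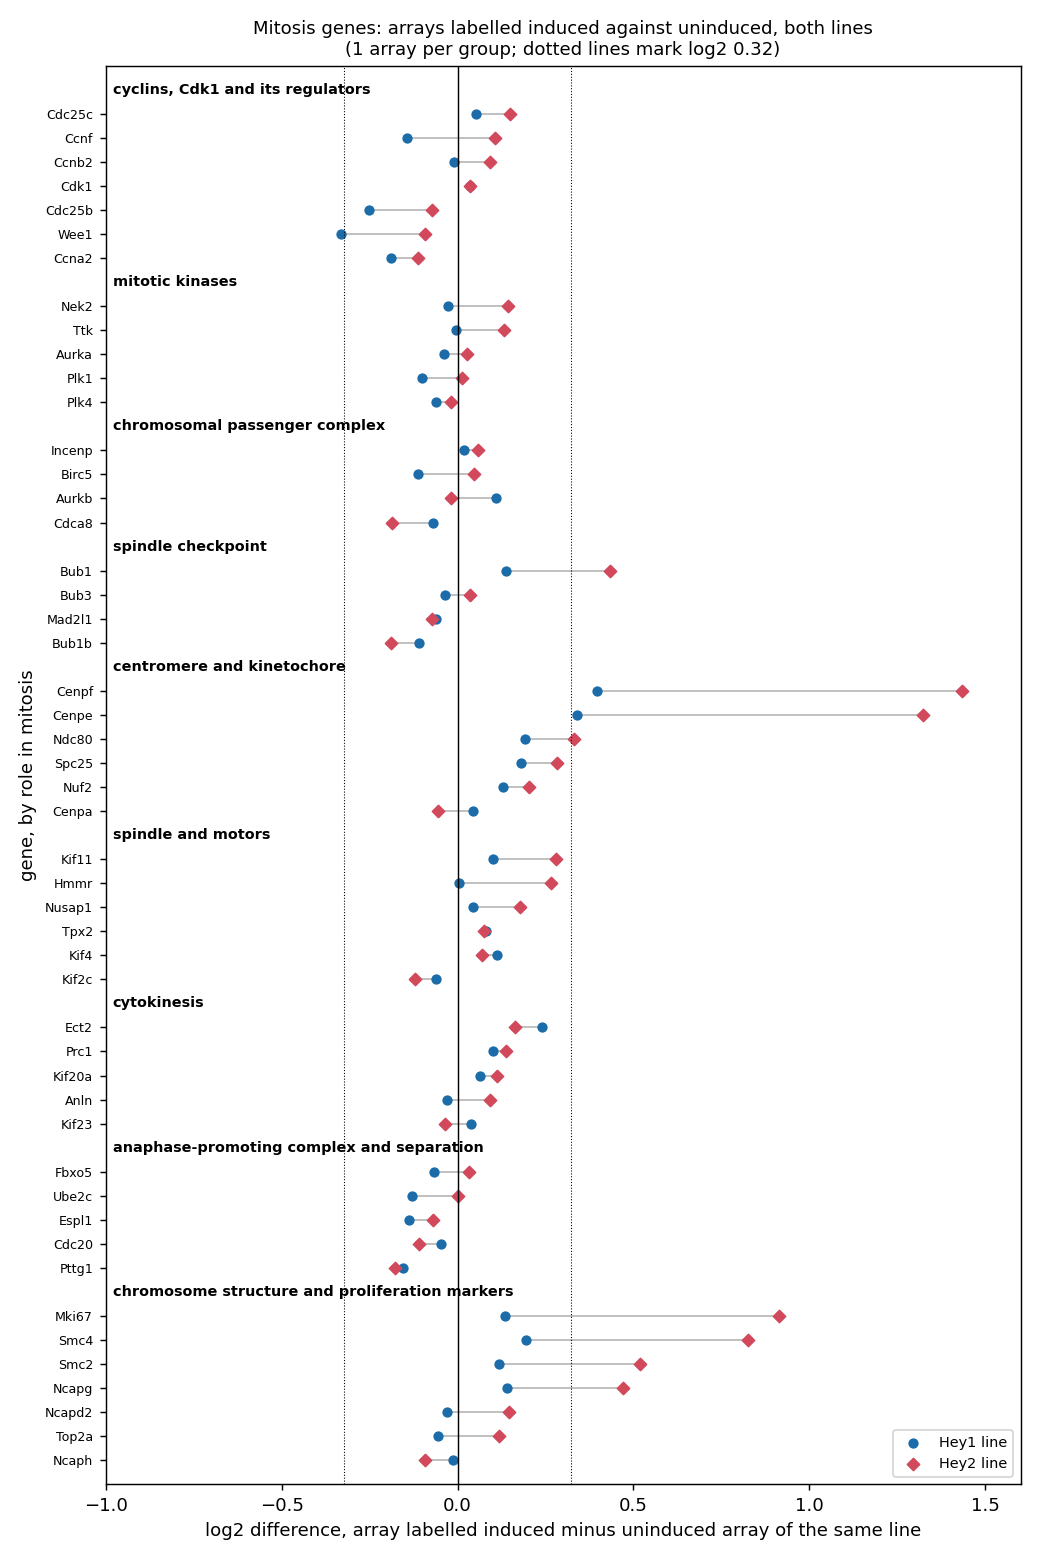
Log2 difference between the array labelled induced and the uninduced array (x axis) for each of the 49 mitosis genes (y axis, grouped by role), with circles for Hey1, diamonds for Hey2 and dotted lines at the threshold of 0.32. The 8 diamonds to the right of the dotted line run from 0.33 for Ndc80 to 1.43 for Cenpf, and 0 diamonds lie to the left of the other dotted line.

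The differences were largest in the kinetochore genes Cenpf and Cenpe. Cenpf encodes a large coiled-coil protein of the outer kinetochore that accumulates in G2. Its level was 10.26 labelled induced and 9.87 uninduced in Hey1 cells, and 10.49 labelled induced and 9.06 uninduced in Hey2 cells. The differences were 0.40 for Hey1 and 1.43 for Hey2, the second a 2.70-fold higher level. Cenpe encodes the kinesin motor that carries chromosomes to the spindle equator. Its level was 9.66 labelled induced and 9.32 uninduced in Hey1 cells, and 9.99 labelled induced and 8.67 uninduced in Hey2 cells, with differences of 0.34 for Hey1 and 1.32 for Hey2. For both genes the uninduced Hey2 array was the lowest of the 4 and the Hey2 array labelled induced the highest.

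The other kinetochore genes differed less. Ndc80, Nuf2 and Spc25 are subunits of the complex that holds the microtubule end, together with Spc24, which is not on the list. Ndc80 read 10.06 labelled induced and 9.87 uninduced in Hey1 cells, and 9.86 labelled induced and 9.53 uninduced in Hey2 cells, with differences of 0.19 for Hey1 and 0.33 for Hey2. Spc25 read 11.24 labelled induced and 11.06 uninduced in Hey1 cells, and 11.06 labelled induced and 10.78 uninduced in Hey2 cells, with differences of 0.18 for Hey1 and 0.28 for Hey2. Nuf2 had 0.13 for Hey1 and 0.20 for Hey2. In each of these 3 genes the uninduced Hey2 array was again the lowest, but the Hey1 array labelled induced was the highest. Spc24 lay the other way. It read 10.75 labelled induced and 11.01 uninduced in Hey1 cells, and 10.96 labelled induced and 11.32 uninduced in Hey2 cells, with differences of -0.25 for Hey1 and -0.36 for Hey2, and its highest level was in the uninduced Hey2 array. Cenpa, the histone H3 variant that marks the centromere, had 0.04 for Hey1 and -0.05 for Hey2. Of the 6 kinetochore and centromere genes, 3 were higher by 0.32 or more in Hey2 cells and 2 in Hey1 cells, where 9.54% and 6.16% of all genes were.

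Among the chromosome structure genes some condensin subunits had the same order of arrays and others did not. Condensin is a ring-shaped complex with Smc2 and Smc4, joined by Ncapd2, Ncapg and Ncaph in condensin I, and it compacts mitotic chromosomes. Smc4 read 12.30 labelled induced and 12.11 uninduced in Hey1 cells, and 12.41 labelled induced and 11.59 uninduced in Hey2 cells, with differences of 0.19 for Hey1 and 0.82 for Hey2. Smc2 read 12.12 labelled induced and 12.00 uninduced in Hey1 cells, and 12.13 labelled induced and 11.61 uninduced in Hey2 cells, with differences of 0.12 for Hey1 and 0.52 for Hey2. In both the uninduced Hey2 array was the lowest and the Hey2 array labelled induced the highest. Ncapg read 10.81 labelled induced and 10.67 uninduced in Hey1 cells, and 10.70 labelled induced and 10.23 uninduced in Hey2 cells, with differences of 0.14 for Hey1 and 0.47 for Hey2. The other condensin I subunits had small differences. Ncapd2 read 10.38 labelled induced and 10.41 uninduced in Hey1 cells, and 10.80 labelled induced and 10.66 uninduced in Hey2 cells, and both Hey2 arrays were above both Hey1 arrays. Its differences were -0.03 for Hey1 and 0.15 for Hey2, and those of Ncaph were -0.01 for Hey1 and -0.09 for Hey2.

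The 2 proliferation markers of the list were unlike each other. Mki67 encodes Ki-67, the protein that coats mitotic chromosomes. It read 11.11 labelled induced and 10.98 uninduced in Hey1 cells, and 11.30 labelled induced and 10.39 uninduced in Hey2 cells, with differences of 0.13 for Hey1 and 0.91 for Hey2, the second a 1.88-fold higher level. Top2a, the topoisomerase that untangles sister chromatids, read 13.06 labelled induced and 13.11 uninduced in Hey1 cells, and 13.21 labelled induced and 13.09 uninduced in Hey2 cells. Its differences were -0.05 for Hey1 and 0.12 for Hey2, and all 4 levels lay between 13.06 and 13.21.

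**Figure D2:**
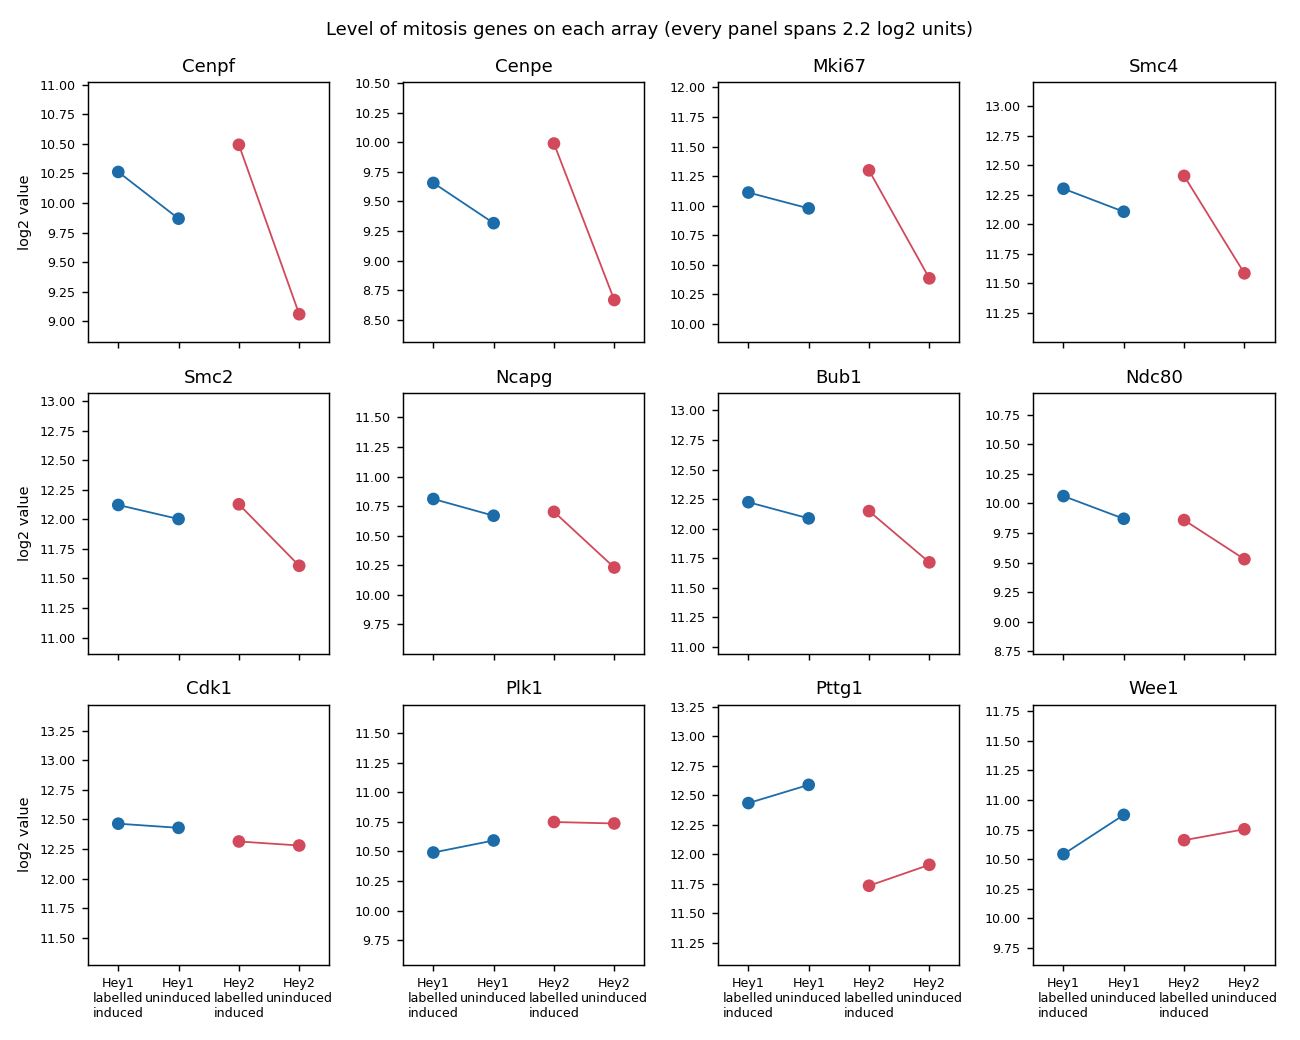
Log2 level (y axis) of mitosis genes on each of the 4 arrays (x axis), with blue points for Hey1, red points for Hey2, a line joining the arrays of each line, and every panel spanning the same range. In the first 8 panels the uninduced Hey2 array is the lowest point, while Cdk1 and Plk1 differ by -0.10 to 0.04 within a line and Pttg1 is lower in both Hey2 arrays.

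Among the spindle checkpoint genes, Bub1 was past 0.32 in Hey2 cells and the other 3 were within it. Bub1 is the kinase that recruits checkpoint proteins to unattached kinetochores. It read 12.22 labelled induced and 12.09 uninduced in Hey1 cells, and 12.15 labelled induced and 11.72 uninduced in Hey2 cells, with differences of 0.14 for Hey1 and 0.43 for Hey2. Its relative Bub1b (BubR1), part of the inhibitor of the anaphase-promoting complex, lay slightly the other way. It read 11.40 labelled induced and 11.51 uninduced in Hey1 cells, and 11.16 labelled induced and 11.35 uninduced in Hey2 cells, with differences of -0.11 for Hey1 and -0.19 for Hey2. Bub3, which docks both, had -0.04 for Hey1 and 0.04 for Hey2, and Mad2l1, which seeds the inhibitor, had -0.06 for Hey1 and -0.07 for Hey2.

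All 5 mitotic kinase genes stayed within 0.32. Ttk (Mps1), which starts checkpoint signalling, read 11.07 labelled induced and 11.08 uninduced in Hey1 cells, and 10.93 labelled induced and 10.79 uninduced in Hey2 cells. Nek2, a kinase of centrosome separation, had -0.03 for Hey1 and 0.14 for Hey2. Plk1, Aurka and Plk4, kinases of mitotic entry, spindle assembly and centriole copying, had differences between -0.10 and 0.03. In Hey1 cells all 5 kinases lay between -0.10 and -0.01, and in Hey2 cells between -0.02 and 0.14.

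Of the 7 measured genes of the mitotic entry switch, 5 lay below 0 in Hey1 cells and 3 in Hey2 cells, with medians of -0.14 and 0.03. Among all 12098 genes compared 6422 lay below 0 in Hey1 cells and 6566 in Hey2 cells. Wee1 encodes the kinase that holds Cdk1 inactive. It read 10.54 labelled induced and 10.87 uninduced in Hey1 cells, and 10.66 labelled induced and 10.75 uninduced in Hey2 cells, with differences of -0.33 for Hey1 and -0.09 for Hey2. The first was the one member difference at or below -0.32 in either line. Cdc25b, which removes the phosphate that Wee1 places, read 8.07 labelled induced and 8.32 uninduced in Hey1 cells, and 8.23 labelled induced and 8.30 uninduced in Hey2 cells, with differences of -0.25 for Hey1 and -0.07 for Hey2. The cyclin A gene Ccna2 had -0.19 for Hey1 and -0.11 for Hey2, the cyclin B gene Ccnb2 -0.01 for Hey1 and 0.09 for Hey2, and Cdk1 itself 0.04 for Hey1 and 0.03 for Hey2. Ccnf, an F-box protein that marks targets for degradation, had -0.14 for Hey1 and 0.11 for Hey2, and Cdc25c, another of the phosphatases, had the highest values of the group at 0.05 for Hey1 and 0.15 for Hey2. With the arrays centred on housekeeping genes 3 members were higher and 0 lower in Hey1 cells, so that Wee1 was no longer past the threshold.

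In the chromosomal passenger complex, where Aurkb corrects faulty attachments together with Birc5, Incenp and Cdca8, 0 of 4 members were past 0.32 in either line. Cdca8 read 11.88 labelled induced and 11.95 uninduced in Hey1 cells, and 12.01 labelled induced and 12.20 uninduced in Hey2 cells, with differences of -0.07 for Hey1 and -0.19 for Hey2. Birc5 (survivin) had -0.11 for Hey1 and 0.05 for Hey2, Aurkb 0.11 for Hey1 and -0.02 for Hey2 and Incenp 0.02 for Hey1 and 0.06 for Hey2. All 4 lay between -0.19 and 0.11.

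Of the 6 spindle and motor genes 5 lay above 0 in Hey2 cells, beside 45.6% of all genes, and all were within 0.32. The bipolar kinesin gene Kif11 read 10.55 labelled induced and 10.45 uninduced in Hey1 cells, and 10.64 labelled induced and 10.36 uninduced in Hey2 cells, with differences of 0.10 for Hey1 and 0.28 for Hey2. The spindle factor gene Hmmr had 0.00 for Hey1 and 0.27 for Hey2, and Nusap1, which binds microtubules near chromatin, had 0.04 for Hey1 and 0.18 for Hey2. Kif2c, a microtubule depolymerase, lay the other way at -0.06 for Hey1 and -0.12 for Hey2. The 6 spindle and motor genes spanned -0.06 to 0.11 in Hey1 cells and -0.12 to 0.28 in Hey2 cells.

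Cytokinesis genes lay above 0 in 4 of 5 cases in each line, all within 0.32, where 46.8% of all genes did for Hey1 and 45.6% for Hey2. Ect2, the exchange factor that turns on RhoA at the cleavage furrow, read 11.87 labelled induced and 11.63 uninduced in Hey1 cells, and 11.60 labelled induced and 11.44 uninduced in Hey2 cells. Its differences of 0.24 for Hey1 and 0.16 for Hey2 were the largest of the group. Prc1, which bundles midzone microtubules, had 0.10 for Hey1 and 0.14 for Hey2, and the midzone kinesin gene Kif23 had 0.04 for Hey1 and -0.04 for Hey2.

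Of the 5 genes of anaphase onset, 5 lay below 0 in Hey1 cells and 3 in Hey2 cells, all within 0.32. Of all 12098 genes compared, 6422 lay below 0 in Hey1 cells and 6566 in Hey2 cells. Pttg1 encodes securin, the inhibitor of separase. It read 12.43 labelled induced and 12.59 uninduced in Hey1 cells, and 11.73 labelled induced and 11.91 uninduced in Hey2 cells, with differences of -0.15 for Hey1 and -0.18 for Hey2. Both Hey2 arrays lay below both Hey1 arrays. The separase gene Espl1 had -0.14 for Hey1 and -0.07 for Hey2. Cdc20, the activator of the anaphase-promoting complex, read 13.22 labelled induced and 13.26 uninduced in Hey1 cells, and 13.32 labelled induced and 13.43 uninduced in Hey2 cells, with differences of -0.05 for Hey1 and -0.11 for Hey2. Ube2c, the ubiquitin-conjugating enzyme of that complex, had -0.13 for Hey1 and 0.00 for Hey2, and its inhibitor Fbxo5 had -0.07 for Hey1 and 0.03 for Hey2.

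**Figure D3:**
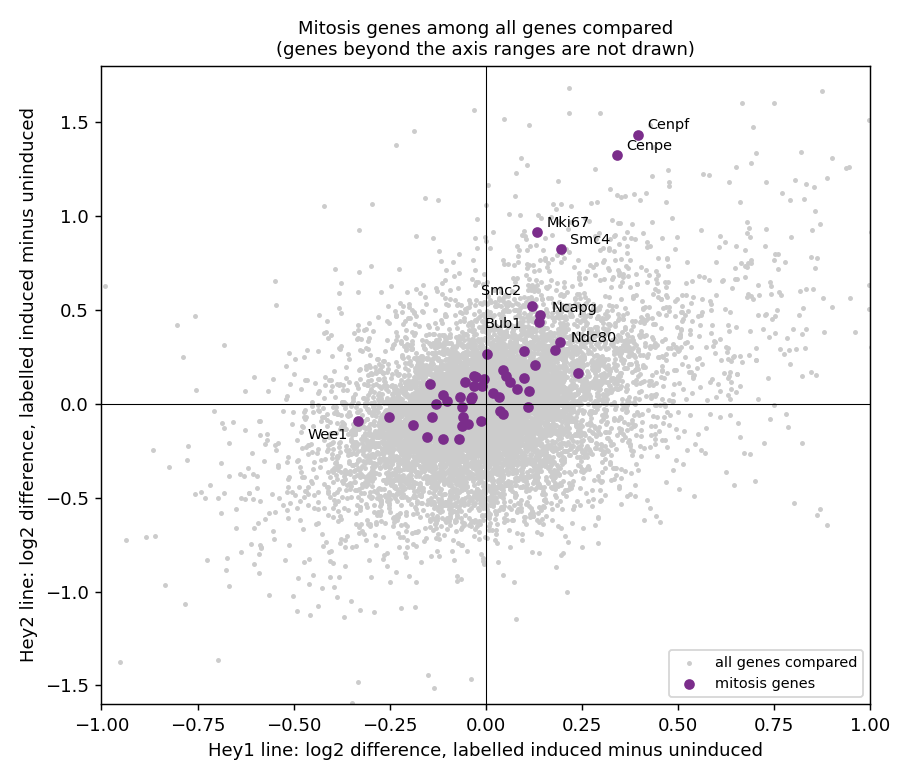
Log2 difference between the array labelled induced and the uninduced array in Hey1 cells (x axis) and in Hey2 cells (y axis), with 1 point per gene, grey for all genes compared and purple for the 49 mitosis genes. The 8 named genes in the upper right lie at 0.33 to 1.43 on the Hey2 axis and at 0.12 to 0.40 on the Hey1 axis, and Wee1 lies at -0.33 on the Hey1 axis.

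The lines were set against each other next. Between the uninduced arrays, Hey2 minus Hey1, 9 members were lower in Hey2 cells by 0.32 or more and 0 were higher, where 12.9% of all genes were lower and 16.0% higher. The 9 were Pttg1 (-0.68) and the 8 genes that were higher within the Hey2 line, from Cenpf (-0.81) to Ndc80 (-0.34). At 1.5-fold 4 members were lower and 0 higher, where 4.42% of all genes were lower and 4.5% higher, and at 2-fold 0 were, where 1.13% and 0.827% were. The median of the members was -0.14, that of all genes 0.03. Centred on housekeeping genes, which puts the median of all genes at 0.16, this comparison gave 5 members higher and 5 lower, and the median of the members was -0.01. It shares the uninduced Hey2 array with the comparison within the Hey2 line, so the 2 are not independent.

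Between the arrays labelled induced, Hey2 minus Hey1, the 8 genes lay closer together. Of the 8, 7 were within 0.32, and the exception was Cenpe, higher in Hey2 cells by 0.33. Their differences ran from -0.20 for Ndc80 to that value. In all 3 members were higher by 0.32 or more, Ncapd2 (0.42), Ccnf (0.37) and Cenpe, and Pttg1 was lower (-0.70), where 12.6% of all genes were higher and 11.0% lower. At 1.5-fold Pttg1 was lower and 0 members were higher, where 2.76% and 3.95% of all genes were, and at 2-fold 0 members passed, where 0.835% of all genes were lower and 0.777% higher. The median of the members was -0.01, that of all genes -0.02. Housekeeping centring gave 8 higher and 1 lower here, with a median of all genes of 0.08.

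Counted over the arrays, 27 of the 49 members had their lowest level in the uninduced Hey2 array, where 26.7% of all genes did. All 8 genes past 0.32 in Hey2 cells were among them. Their choice by a high difference from that array favours this outcome, so it adds no separate observation. With the uninduced Hey1 array in place of the uninduced Hey2 array, 4 members were higher by 0.32 or more and 2 lower in the Hey2 array labelled induced, where 13.8% of all genes were higher and 10.9% lower. Of the 8 genes 2 still passed, Cenpe (0.67) and Cenpf (0.62), and Mki67 (0.3216) missed the unrounded threshold of 0.3219 by little. The other 5 had 0.30 or less, for Smc4 0.30 and for Bub1 0.06. With the uninduced Hey2 array set against the Hey1 array labelled induced, 14 members were higher and 1 lower, where 15.6% of all genes were higher and 18.6% lower. Such a change of array is also a change of line, and the 2 cannot be told apart.

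**Figure D4:**
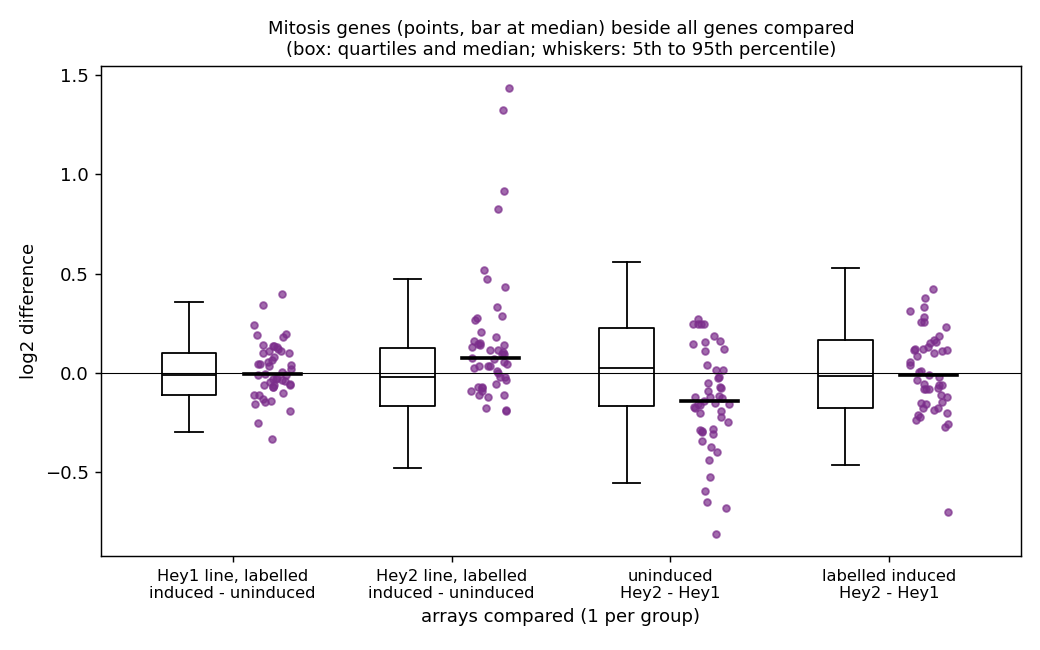
Log2 differences (y axis) for 4 pairs of arrays (x axis), with a box for all 12098 genes compared (quartiles and median, whiskers from the 5th to the 95th percentile) and a purple point for each of the 49 mitosis genes, with a bar at their median. The bar lies at -0.005 in Hey1 cells, 0.08 in Hey2 cells, -0.14 between the uninduced arrays and -0.01 between the arrays labelled induced.

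The difference in Hey2 cells exceeded that in Hey1 cells by 0.32 or more in 6 members, Cenpf (by 1.04), Cenpe (0.98), Mki67 (0.78), Smc4 (0.63), Smc2 (0.40) and Ncapg (0.33), where 8.1% of all genes did so. In 0 members was it smaller by as much, where 12.0% of all genes were. All 4 arrays enter this contrast, and it was not tested.

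The response common to the lines was fitted by limma with a term for the line, and 0 of the 49 members passed an adjusted p of 0.05, as did 0.0% of all genes in either direction. The lowest adjusted p of a member was 0.334 (limma), that of Cenpf, whose mean difference was 0.91 ± 0.27 (SE, 2 lines). Cenpe had 0.83 ± 0.26, Smc4 0.51 ± 0.18 and Ndc80 0.26 ± 0.09. These 4 members were higher in both lines and had an unadjusted p under 0.05 by limma, and 0 lower ones did, where 6.9% of all genes were higher and 6.31% lower. With a trended and robust variance prior 0 members passed, and their lowest adjusted p was 0.0729 (limma), that of Bub1, where 1.99% of all genes were called higher and 1.59% lower. With the line term, the p-values rest on how far the differences of the 2 lines lay apart, moderated by the spread over all genes. Nothing in the labels ties the arrays to separate cultures or animals. The p-values therefore cover no more than these 4 samples, and part of the disagreement of the lines may be technical.

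Gene length, RNA quality and markers of other cell types were set beside these differences. Across the 49 members Spearman's rho between genomic length and difference was 0.53 in Hey2 cells and 0.52 in Hey1 cells, beside 0.13 and 0.02 across 12055 genes. It was -0.31 between the uninduced arrays and -0.05 between the arrays labelled induced. The members share the same 4 RNA samples, so these values describe the arrays. Of the 8 genes past 0.32 in Hey2 cells, Cenpe, Smc2 and Cenpf ranked 2, 5 and 6 in length among the 49 members. Bub1, Ndc80, Ncapg, Smc4 and Mki67 ranked 14, 16, 17, 19 and 24, and Kif4, the longest, had 0.11 for Hey1 and 0.07 for Hey2. The log2 gap between 3′ and 5′ control probe sets was smallest in the uninduced Hey2 array for each of 4 control transcripts. For Tfrc it was 0.84 labelled induced and 0.95 uninduced in Hey1 cells, and 0.96 labelled induced and 0.67 uninduced in Hey2 cells. For Pcx it was 1.43 labelled induced and 1.38 uninduced in Hey1 cells, and 1.56 labelled induced and 1.33 uninduced in Hey2 cells. Actb had 0.51 labelled induced and 0.48 uninduced in Hey1 cells, and 0.42 labelled induced and 0.39 uninduced in Hey2 cells. All values of Gapdh lay between 0.01 and 0.04. In Hey1 cells the Tfrc gap was smaller in the array labelled induced, unlike in Hey2 cells. Among markers of other cell types Myh6, of heart muscle, had its lowest level in the uninduced Hey2 array. It read 6.53 labelled induced and 6.07 uninduced in Hey1 cells, and 6.48 labelled induced and 5.60 uninduced in Hey2 cells. Nkx2-5, from the same list of mesoderm and heart markers, had its highest level in that array. It read 5.71 labelled induced and 6.23 uninduced in Hey1 cells, and 5.75 labelled induced and 6.50 uninduced in Hey2 cells. Mesp1, the other marker of that list above the level filter, was lowest in the uninduced Hey1 array. The fibroblast marker Thy1 read 7.80 labelled induced and 7.13 uninduced in Hey1 cells, and 5.73 labelled induced and 5.51 uninduced in Hey2 cells. Col1a2, the other fibroblast marker above the level filter, was highest in the uninduced Hey2 array. It read 6.13 labelled induced and 6.04 uninduced in Hey1 cells, and 5.89 labelled induced and 6.27 uninduced in Hey2 cells. The summed log2 levels of the 4 measured mesoderm and heart markers were 22.9 and 23.1 labelled induced (Hey1 and Hey2) and 23.3 and 22.9 uninduced. Those of the fibroblast markers were 38.0 and 35.9 labelled induced and 37.4 and 36.7 uninduced. The part of length, RNA quality and other cells in the result was not tested.

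Other probe sets of the genes that differed most pointed the same way in Hey2 cells, but in Hey1 cells some did not. The other probe set of Cenpe had 0.97 for Hey1 and 1.82 for Hey2, and the other one of Cenpf above the level filter had -0.06 for Hey1 and 0.59 for Hey2. All 3 probe sets of Smc4 lay between 0.82 and 1.05 in Hey2 cells, and all 5 of Smc2 between 0.52 and 1.02. The other probe set of Ncapg had -0.06 for Hey1 and 0.35 for Hey2. That of Bub1, below the filter, had -0.29 for Hey1 and 0.57 for Hey2, while Mki67 and Ndc80 were read by 1 probe set each. With probe sets averaged per gene Bub1 had -0.08 for Hey1, and Cenpe had 0.65 for Hey1, past 1.5-fold.

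Some members within 0.32 had a probe set beyond it. In Hey2 cells Hmmr had 2 such probe sets of 5 (0.39 and 0.36), and Incenp had 1 of 4 above the filter (0.46). Aurka (0.51), Ncapd2 (0.35) and Anln (0.32) each had 1 as well. Lower by as much were probe sets of Kif2c (-0.46), Tpx2 (-0.71) and Wee1. The other probe set of Wee1 had -0.10 for Hey1 and -0.34 for Hey2, so the line with the lower value differed between its probe sets. Of the 32 members with more than 1 probe set above the filter, 23 had the same sign in all of them in Hey2 cells, 18 in Hey1 cells and 25 between the uninduced arrays. Of 99 probe sets above the filter, 23 were higher by 0.32 or more and 3 lower in Hey2 cells, and 9 were higher and 2 lower in Hey1 cells. Neither the shared signs nor the probe sets were counted over all genes, so no share can be set beside these counts.

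**Figure D5:**
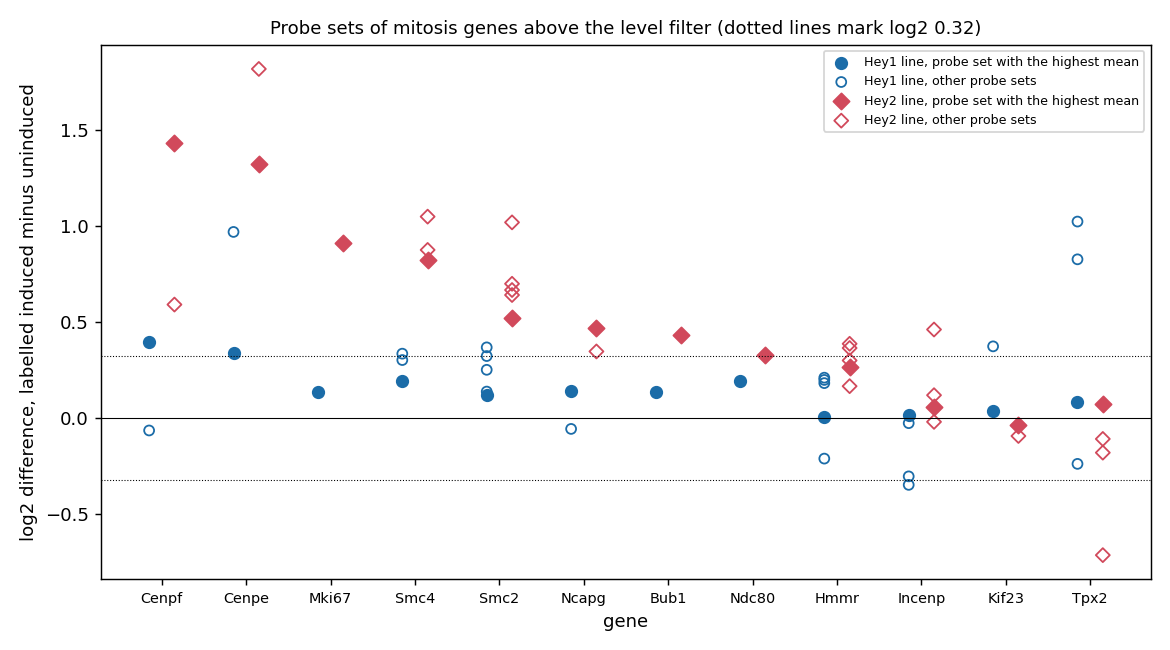
Log2 difference between the array labelled induced and the uninduced array (y axis) for every probe set above the level filter of selected mitosis genes (x axis), with circles for Hey1, diamonds for Hey2, filled symbols for the probe set with the highest mean level and dotted lines at 0.32. All Hey2 diamonds of Smc4 (0.82 to 1.05) and Smc2 (0.52 to 1.02) lie above the dotted line, whereas the probe sets of Tpx2 spread from -0.71 to 1.02.

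Mitosis genes often carry in their promoters the cell cycle genes homology region (CHR), the site of the MuvB complexes, and CCAAT boxes, the site of NF-Y. The letters searched for, on both strands, were TTTGAA or TTCGAA for the CHR core and CCAAT, and overlapping matches were counted each. The window ran from 250 bases before to 50 after the start of the gene, from RefSeq (GRCm38.p6), with 42 of the 50 listed genes matched by symbol. A CHR core was found in 32 of the 42 (76.2%), beside 21.7% of 27025 genes with such a window, and CCAAT in 32 (76.2%), beside 41.1%. Both were found in 29 (69.0%), beside 8.61%. These shares describe the list, which was chosen for its role in mitosis.

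By these letters the 8 genes past 0.32 in Hey2 cells were close to the other members. Among the 7 with a window 6 held a CHR core (85.7%) and 5 both motifs (71.4%), and of the 34 other measured members 26 held a CHR core (76.5%) and 24 both (70.6%). The E-box CACGTG, a sequence bound by Hey and other basic helix-loop-helix proteins, was chosen after the other values were seen. It was found in 3 of the 42 windows (7.14%), beside 8.09% of all, and in 0 of the 7. Shown first are the promoters of 4 of the 7, and after them those of 3 members that differed by -0.10 to 0.09 in both lines, to set the letters of both sets side by side. Capitals mark the CHR core and CCAAT matches on either strand, and each sequence reads 5′ to 3′ on the gene's strand.
Cenpf promoter, GRCm38.p6 chr1:189688037-189688336, minus strand: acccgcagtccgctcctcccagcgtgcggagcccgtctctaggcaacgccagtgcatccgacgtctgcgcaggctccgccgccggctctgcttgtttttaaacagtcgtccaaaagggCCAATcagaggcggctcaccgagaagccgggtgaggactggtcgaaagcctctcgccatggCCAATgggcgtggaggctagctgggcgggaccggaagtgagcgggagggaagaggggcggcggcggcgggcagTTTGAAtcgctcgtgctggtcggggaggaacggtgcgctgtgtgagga
Cenpe promoter, GRCm38.p6 chr3:135212313-135212612, plus strand: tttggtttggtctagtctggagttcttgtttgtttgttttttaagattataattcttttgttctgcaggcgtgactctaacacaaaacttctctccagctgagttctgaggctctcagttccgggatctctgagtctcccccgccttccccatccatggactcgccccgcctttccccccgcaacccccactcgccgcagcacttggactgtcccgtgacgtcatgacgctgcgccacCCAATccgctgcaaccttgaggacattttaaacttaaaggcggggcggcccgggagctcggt
Mki67 promoter, GRCm38.p6 chr7:135716330-135716629, minus strand: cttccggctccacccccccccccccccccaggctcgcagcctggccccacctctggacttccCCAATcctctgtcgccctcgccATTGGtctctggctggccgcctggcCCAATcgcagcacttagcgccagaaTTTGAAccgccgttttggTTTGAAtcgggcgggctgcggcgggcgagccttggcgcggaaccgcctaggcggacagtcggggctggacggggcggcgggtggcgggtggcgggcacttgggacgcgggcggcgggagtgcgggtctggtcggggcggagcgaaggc
Smc2 promoter, GRCm38.p6 chr4:52438971-52439270, plus strand: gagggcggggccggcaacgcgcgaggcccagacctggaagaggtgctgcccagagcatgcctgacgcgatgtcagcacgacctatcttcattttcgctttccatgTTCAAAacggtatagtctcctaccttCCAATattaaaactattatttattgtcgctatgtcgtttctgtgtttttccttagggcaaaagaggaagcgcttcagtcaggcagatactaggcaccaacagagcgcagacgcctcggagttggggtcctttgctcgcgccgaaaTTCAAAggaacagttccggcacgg
Ccnb2 promoter, GRCm38.p6 chr9:70421505-70421804, minus strand: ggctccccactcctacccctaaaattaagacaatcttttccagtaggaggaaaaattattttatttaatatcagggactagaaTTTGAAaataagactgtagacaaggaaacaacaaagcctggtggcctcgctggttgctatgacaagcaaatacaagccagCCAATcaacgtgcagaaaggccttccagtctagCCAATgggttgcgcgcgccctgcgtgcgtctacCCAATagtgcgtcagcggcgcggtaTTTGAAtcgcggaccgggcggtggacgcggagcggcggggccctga
Plk1 promoter, GRCm38.p6 chr7:122159185-122159484, plus strand: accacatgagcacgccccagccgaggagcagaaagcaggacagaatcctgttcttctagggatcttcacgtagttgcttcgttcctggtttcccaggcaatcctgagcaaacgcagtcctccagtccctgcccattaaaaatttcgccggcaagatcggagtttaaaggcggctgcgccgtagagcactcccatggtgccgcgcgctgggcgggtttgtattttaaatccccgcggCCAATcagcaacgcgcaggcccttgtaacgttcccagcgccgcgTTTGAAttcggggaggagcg
Cdk1 promoter, GRCm38.p6 chr10:69352863-69353162, minus strand: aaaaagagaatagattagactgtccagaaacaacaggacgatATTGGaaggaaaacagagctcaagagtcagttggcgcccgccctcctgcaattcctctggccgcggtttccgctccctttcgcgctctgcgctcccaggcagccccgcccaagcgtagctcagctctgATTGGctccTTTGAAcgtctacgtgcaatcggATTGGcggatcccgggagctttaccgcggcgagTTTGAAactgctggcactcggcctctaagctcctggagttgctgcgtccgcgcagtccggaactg

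The Cenpe window, of a gene with a difference of 1.32 in Hey2 cells, held 1 CCAAT match and 0 CHR matches. That of Mki67 held 3 CCAAT matches and 2 CHR matches, and so did those of Ccnb2 and Cdk1, whose differences in Hey2 cells were 0.09 and 0.03. A match is a run of letters and not a measured site.

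Other mitosis genes were past the threshold in Hey2 cells in both directions. Of 87 further genes of the spindle, kinetochore, cohesin and anaphase-promoting complex 84 were compared. Of these 11 were higher and 4 lower by 0.32 or more in Hey2 cells, where 9.54% of all genes were higher and 11.7% lower, and 2 were higher and 1 lower in Hey1 cells, where 6.16% and 3.99% were. Knl1, the kinetochore scaffold that binds Bub1, read 9.32 labelled induced and 8.85 uninduced in Hey1 cells, and 9.33 labelled induced and 8.08 uninduced in Hey2 cells, with differences of 0.47 for Hey1 and 1.246 for Hey2. Kif20b, a kinesin of cytokinesis, read 11.07 labelled induced and 10.78 uninduced in Hey1 cells, and 11.15 labelled induced and 9.90 uninduced in Hey2 cells, with differences of 0.28 for Hey1 and 1.251 for Hey2. For both the uninduced Hey2 array was the lowest. So it was for the cohesin ring gene Smc3 (0.15 for Hey1 and 0.77 for Hey2), the microtubule polymerase gene Ckap5 (0.18 for Hey1 and 0.65 for Hey2) and the kinesin gene Kif18a (0.21 for Hey1 and 0.60 for Hey2). These genes were named for being past 1.5-fold in Hey2 cells, which favours a low level in that array. A further probe set above the filter had 0.08 for Hey1 and 1.46 for Hey2 for Knl1, and 0.30 and 1.57 for Kif20b. For Smc3 it had 0.25 and 0.35, and for Ckap5 -0.11 and 0.42, so these 2 did not reach 1.5-fold in Hey2 cells.

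Lower by over 1.5-fold in Hey2 cells were Cit, a cytokinesis kinase gene (-0.74), and Pkmyt1, which encodes a kinase related to Wee1 (-0.62). In both the uninduced Hey2 array was the highest, at 8.81 for Cit and 9.09 for Pkmyt1, which their choice by that fold favours. Other probe sets above the filter had -0.02 to 0.41 for Cit and 0.05 for Pkmyt1 in Hey2 cells. Depdc1b, the 1 gene lower by 0.32 or more in Hey1 cells, read 9.46 labelled induced and 9.94 uninduced in Hey1 cells, and 9.48 labelled induced and 9.82 uninduced in Hey2 cells, with differences of -0.48 for Hey1 and -0.33 for Hey2. It was lower in both lines. The median of the 84 genes was 0.02 in Hey2 cells and 0.04 in Hey1 cells. By limma 0 of the 84 passed an adjusted p of 0.05, and 10 had an unadjusted p under 0.05, 7 of them higher and 3 lower, where 6.9% of all genes were higher and 6.31% lower. Across them the rho with genomic length was 0.37 in Hey2 cells and 0.21 in Hey1 cells.

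Of 20 listed regulators of mitosis genes 19 were compared, and 1 was past 0.32 within each line, both upward. Among all genes 6.16% were higher by as much in Hey1 cells and 9.54% in Hey2 cells. Mybl2 (B-Myb) read 11.08 labelled induced and 10.97 uninduced in Hey1 cells, and 11.77 labelled induced and 11.39 uninduced in Hey2 cells, with differences of 0.10 for Hey1 and 0.38 for Hey2. Both Hey2 arrays were above both Hey1 arrays, Hey2 minus Hey1, by 0.69 between the arrays labelled induced and 0.42 between the uninduced ones. Lin9, a core MuvB subunit, had 0.36 for Hey1 and 0.19 for Hey2, and Hey2 minus Hey1 was -0.48 between the arrays labelled induced and -0.31 between the uninduced ones. Lin54, the subunit that contacts the CHR, had 0.07 for Hey1 and 0.07 for Hey2. Foxm1, the transcription factor of late cell cycle genes, had -0.05 for Hey1 and 0.12 for Hey2, and was higher in Hey2 than in Hey1 cells by 0.53 between the arrays labelled induced and 0.37 between the uninduced ones. E2f4, a repressor in resting cells, had 0.20 for Hey1 and 0.09 for Hey2. The Cdk inhibitor gene Cdkn1a had -0.05 for Hey1 and -0.01 for Hey2. Trp53 was not analysed here. By limma 0 of the 19 passed an adjusted p of 0.05 and 1 had an unadjusted p under 0.05, where 6.9% of all genes were higher and 6.31% lower.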

How the data were processed

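RNA of the 4 groups was read on 1 Affymetrix array each. The deposited values are log2 levels per probe set made with RMA, per the submitters' processing notes, which give no version here. Their range, 2.67 to 15.2, fits a log2 scale. The sorted arrays agreed within 0.0024, so no shift common to all genes can be seen, and depth has no counterpart.

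Samples were grouped by title. Of 45101 probe sets 34958 had 1 gene symbol, 932 several and 9211 none, and only the first were used. Genes were compared if their highest value reached 6.05. The common response was fitted by limma (version 3.58.1, R 4.3.3) with lmFit and eBayes, the line as a block and 1 residual degree of freedom, with Benjamini-Hochberg adjustment over all genes, and the script was tested on simulated data. Other steps used Python 3.11.15 (pandas 2.3.3, numpy 2.4.6, scipy 1.17.1, matplotlib 3.10.9). All 49 measured members matched a RefSeq gene identifier.

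The members and lists were chosen with earlier results of these data known. A rule chose the members to name: the largest same-sign differences, those past 1.5-fold, of opposite sign or far apart between the uninduced arrays, the highest and lowest, and 1 per role group. Genes past 1.5-fold and named regulators came from the other lists. Other genes in the text were chosen after their values were seen. Alternatives were other level filters, cyclic loess, housekeeping centring, an offset of 32 on the linear scale, other probe set choices and folds, the uninduced array of the other line, a trended prior, no line block, and each array left out.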

Additional observations from a re-analysis of the deposited data

Results flagged for a closer look

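Tpx2 encodes a microtubule-associated activator of Aurora A, and 1 of its 4 probe sets differed in opposite directions in the lines by 0.32 or more. It read 7.39 labelled induced and 6.37 uninduced in Hey1 cells, and 6.13 labelled induced and 6.84 uninduced in Hey2 cells, with differences of 1.02 for Hey1 and -0.71 for Hey2. The difference for Hey2 minus that for Hey1 was -1.74, and this was not tested. The other probe sets of Tpx2 had 0.83 for Hey1 and -0.18 for Hey2, -0.24 and -0.11, and, in the one with the highest level, 0.08 and 0.08 in the same order.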

How the results depend on the processing

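The count of members past 0.32 in Hey2 cells, 8, was 7 to 11 under other level filters, cyclic loess, housekeeping centring, the offset and other choices of probe set. It was 6 with the uninduced Hey1 array in place of the uninduced Hey2 one, where Ndc80 turned to -0.011. It was 4 at 1.5-fold, 2 at 2-fold, and 26 with every probe set counted on its own, an alternative chosen after seeing the data. In Hey1 cells the count of 3 became 15 with the uninduced Hey2 array in place of the uninduced Hey1 one, 0 at 1.5-fold and 0 at 2-fold. Between the uninduced arrays 9 became 4 at 1.5-fold and 0 at 2-fold. Between the arrays labelled induced 4 became 9 with housekeeping centring, 1 at 1.5-fold and 0 at 2-fold. The count of members whose line differences were 0.32 or more apart, 6, became 11 with probe sets averaged per gene. Apart from the stricter folds, the cause was not tested. In the common response 0 members passed by limma under all alternatives, with each array left out, and with no replicate block (0), and 0 to 12 had an unadjusted p under 0.05. The arrays were paired by line in the main fit, since doxycycline against none with the lines as repeats was the only contrast with a repeat. The lines are labelled for different factors, so they are not replicates of a single condition. The labels give no replicate numbers. The number of arrays limits every result.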
